A study of Homo sapiens with 60 samples.

Results

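The genes described here are 35 genes of the NRF2 response, of glutathione and thioredoxin metabolism and of the pentose phosphate pathway, picked by symbol from a table of 58395 gene identifiers. They fall into 7 groups by role: 3 regulators, 7 NRF2 stress enzymes and transporters, 5 genes of glutathione synthesis and recycling, 6 glutathione peroxidases, catalase and superoxide dismutases, 5 genes of the thioredoxin system, 6 peroxiredoxins and 3 pentose phosphate enzymes. All 35 were in the table. SOD2 had a second identifier that held almost no counts and was not used. 34 of the 35 passed the filter on low counts and were tested among 18985 genes. The exception was SLC7A11-AS1, an antisense transcript of the cystine transporter gene, with 92 counts over all 60 libraries.

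The cells were HEK293A, an adherent line of human embryonic kidney origin, in which TDP1 had been knocked out with CRISPR/Cas9. TDP1 removes trapped topoisomerase 1 from DNA ends. The 3 knockout lines C6, F7 and G6 were each grown from 1 clone, so a difference between them is a difference between clones, and every group below, controls included, carried the knockout. The 5 treatments were no treatment, 0.1% DMSO, 100 nM topotecan (a topoisomerase 1 poison) in 0.1% DMSO, 5 µM OL9-119 (a compound studied as a TDP1 inhibitor) in DMSO, and topotecan with OL9-119 at the same doses, each for 5 to 5.5 hours. The DMSO percentage of the combination is not given in the sources used here. Each of the 15 groups of clone by treatment had 4 biological replicates. Parental cells without the knockout were not analysed here. Nothing in the labels says whether replicates were separate cultures, so p-values measure only the spread between these libraries.

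NRF2, encoded by NFE2L2, is a transcription factor that KEAP1 holds for degradation until oxidants or electrophiles modify KEAP1. Freed NRF2 binds antioxidant response elements together with small MAF proteins and drives genes such as NQO1, HMOX1, SRXN1, GCLM and TXNRD1. Glutathione peroxidases use glutathione to reduce peroxides, peroxiredoxins use thioredoxin, and both systems draw electrons from NADPH, which the pentose phosphate pathway and malic enzyme supply.

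Libraries held 4.62 to 20.9 M counts, with a median of 11.4 M. TDP1 transcripts were counted in every library, at 25.8 to 42.3 CPM (counts divided by TMM-scaled library size) in C6, 17.8 to 31.7 CPM in F7 and 21.5 to 39.1 CPM in G6. Counts per gene do not show the edited exons, so they do not check the knockout. The 9 genes listed as markers of the HEK293 line all averaged above 1 CPM over the 60 libraries. In single libraries PAX2 was as low as 0 CPM and SALL4 as low as 0.572 CPM. The list summed to 1412 to 2371 CPM, mostly from KRT8, VIM, KRT18 and NEFL (means of 698, 448, 291 and 245 CPM). The blood cell list summed to 0 to 4.48 CPM and the hepatocyte list to 0 to 1.94 CPM. The fibroblast list summed to 18.5 to 47.1 CPM, with 4 of 5 genes averaging above 1 CPM. The endothelium list summed to 2.87 to 13.5 CPM, with 3 of 4. Their part in the results was not tested. 14 libraries stood apart with 17454 to 19345 detected genes at 4.5 M counts, against 20160 to 23640 in the other 46. 10 of the 14 were from clone C6, 4 were from G6 and none was from F7, so a treatment call described here that changes without them is given with both values.

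Between genes, levels were compared per exon kilobase in DMSO. TXN and the peroxiredoxin genes were among the most abundant of the 35, whereas TXN2, TXNIP and TXNRD2 ranked 17, 20 and 30. TXN, which encodes cytosolic thioredoxin, stood first at 468 CPM per exon kb, followed by PRDX1 at 298, PRDX4 at 273 and SOD1 at 171. The NRF2 stress genes were low in comparison: HMOX1 stood at 10.7, NQO1 at 1.98, MGST1 at 1.37, OSGIN1 at 0.736 and SRXN1 at 0.536 CPM per exon kb. The highest of that group were ME1 at 18.9 and ABCC1 at 13.4. NFE2L2 itself was at 12.4 and KEAP1 at 21.5.

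After OL9-119, transcripts of cytosolic thioredoxin, its reductase, its binding protein TXNIP, 4 peroxiredoxins and both superoxide dismutases fell, and GPX8 rose. The SOD2 call was lost in 8 of 14 alternative fits, PRDX3 in 4, GPX8 in 3 and PRDX6 in 1. None of the 7 NRF2 stress enzymes and transporters, the glutathione synthesis genes or the pentose phosphate genes passed the test. For groups this small, none is near the share of all tested genes given next. Of 34 tested genes, 10 passed an adjusted p of 0.05 (edgeR quasi-likelihood test, Benjamini-Hochberg), 1 higher and 9 lower, where 9.47% of all tested genes passed, 4.47% higher and 5% lower. Abundant genes were called more often: of all tested genes at a mean of 40 CPM or more in DMSO, 12.2% fell, and the 26 of the 34 at that level included all 9 that fell. For 5 of the 34 (PRDX1, TXN, TXNRD1, PRDX4 and SOD1) all 4 treated libraries lay below all 4 DMSO libraries in each of the 3 clones, which held for 0.458% of all tested genes. The same counts after topotecan were 6 genes, 3 higher and 3 lower, against 15.3% of all tested genes (5.99% higher and 9.35% lower). After the combination they were 14 genes, 4 higher and 10 lower, against 21.2% (9.52% higher and 11.7% lower). These 3 comparisons share the 12 DMSO libraries.

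**Figure D1:**
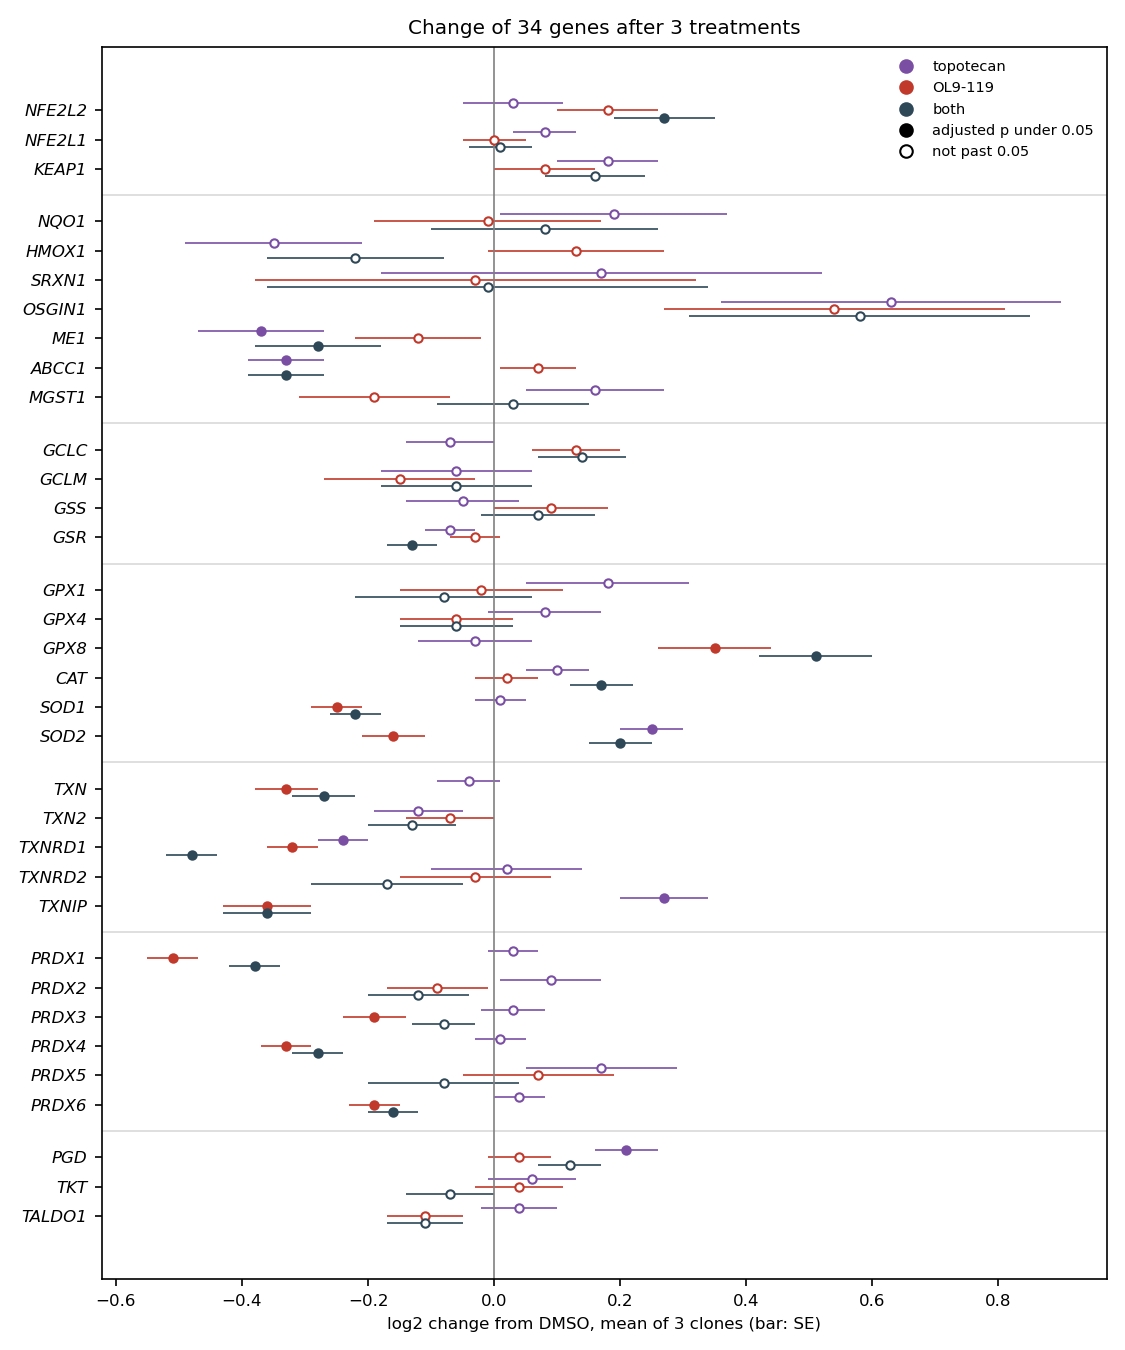
Log2 change from DMSO, as the mean of the 3 clones with its SE, for the 34 tested genes in their role groups after topotecan, OL9-119 or both. Filled points passed an adjusted p of 0.05; the OL9-119 points of PRDX1 (-0.51), TXN (-0.33) and TXNRD1 (-0.32) lie left of 0 while those of NQO1 (-0.01) and GCLC (0.13) are open.

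Peroxiredoxins are thiol peroxidases that reduce hydrogen peroxide. PRDX1, the abundant cytosolic member (chr1:45511036-45523047, hg38), showed the largest fall of the 34 after OL9-119. In DMSO its level was 442, 427, 412 and 476 CPM in clone C6, 485, 432, 470 and 459 in F7, and 514, 440, 461 and 421 in G6. After OL9-119 it was 302, 283, 302 and 349 CPM in C6, 363, 313, 328 and 308 in F7, and 304, 302, 356 and 312 in G6. Every treated library was below every DMSO library of the series, so the groups did not overlap. PRDX1 fell by 29.7% (log2 change -0.51 ± 0.04 SE, adjusted p = 1.21e-16), with log2 changes of -0.51, -0.49 and -0.53 within C6, F7 and G6. Without the 14 libraries of low detection its log2 change was also -0.51. Part of the PRDX1 exons, 24.9% of their bases, overlaps MMACHC on the other strand, and MMACHC held 0.0497 times the counts of PRDX1.

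PRDX4, the peroxiredoxin of the endoplasmic reticulum, fell by 20.3% after OL9-119 (log2 change -0.33 ± 0.04, adjusted p = 1.83e-09). Its 12 DMSO libraries ran from 363 to 656 CPM with a median of 557, and its 12 OL9-119 libraries from 312 to 494 with a median of 422. These ranges overlapped across clones, but within each clone they did not. PRDX6, which also has phospholipase activity, fell by 12.3% (log2 change -0.19 ± 0.04, adjusted p = 1.70e-04), and the mitochondrial PRDX3 by 12.1% (log2 change -0.19 ± 0.05, adjusted p = 0.00491). The PRDX3 call was lost in 4 of 14 alternatives, among them without replicate 1, without replicate 2 and without clone G6. The PRDX6 call was lost in 1, without the low-count filter (adjusted p = 0.0548). PRDX2 (log2 difference -0.09 ± 0.08) and PRDX5 (0.07 ± 0.12) did not pass.

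Topotecan alone moved none of the 6 peroxiredoxins past the test, with log2 differences of 0.01 to 0.17. Of all tested genes 15.3% passed, and for 6 genes none is near that share. After the combination PRDX1 fell by 22.9% (log2 change -0.38 ± 0.04, adjusted p = 3.11e-12), PRDX4 by 17.4% and PRDX6 by 10.6%. The PRDX6 call was lost in 3 of 14 alternatives: without the low-count filter (adjusted p = 0.117), without replicate 1 (adjusted p = 0.0881) and without clone G6 (adjusted p = 0.0537). PRDX1 under the combination was 358, 362, 340 and 354 CPM in C6, 340, 348, 361 and 324 in F7, and 340, 369, 365 and 331 in G6, below every DMSO library. Against OL9-119 alone, PRDX1 was higher under the combination by a log2 difference of 0.13 ± 0.04 (adjusted p = 0.00746). That call was lost without replicate 2 (0.09, adjusted p = 0.281), without clone C6 and without the low-count filter. 4 of the 34 genes passed in that comparison, against 12.7% of all tested genes. The others were SOD2, ABCC1 and TXNRD1.

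In the thioredoxin system, TXNRD1 encodes the cytosolic selenoprotein reductase that returns thioredoxin to its reduced form (chr12:104215779-104350305). It was the only one of the 34 that fell after topotecan, after OL9-119 and after the combination with no overlap within any clone, which held for 2.2%, 0.458% and 2.16% of all tested genes in the 3 comparisons taken singly. In DMSO it was at 292, 303, 286 and 308 CPM in C6, 407, 372, 396 and 390 in F7, and 381, 376, 430 and 346 in G6. After the combination it was at 200, 235, 222 and 217 CPM in C6, 286, 303, 300 and 290 in F7, and 250, 272, 259 and 230 in G6. The C6 libraries lay below all others in DMSO, and after the combination they overlapped with those of G6.

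TXNRD1 fell by 15.2% after topotecan (log2 change -0.24 ± 0.04, adjusted p = 3.65e-06), by 19.7% after OL9-119 (-0.32 ± 0.04, adjusted p = 1.09e-08) and by 28.5% after the combination (-0.48 ± 0.04, adjusted p = 3.51e-15). The combination was lower than topotecan alone by a log2 difference of -0.25 ± 0.04, and lower than OL9-119 alone by -0.17 ± 0.04 (adjusted p = 0.00116). The last of these was -0.09 (adjusted p = 0.215) without the 14 libraries of low detection, and it was also lost without replicate 1 (-0.11, adjusted p = 0.143).

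TXN (chr9:110243811-110256640), the substrate of TXNRD1, fell after OL9-119. In DMSO it was at 601, 580, 512 and 597 CPM in C6, 478, 426, 440 and 435 in F7, and 670, 570, 567 and 531 in G6. After OL9-119 it was at 424, 401, 411 and 469 CPM in C6, 418, 372, 393 and 356 in F7, and 500, 412, 490 and 412 in G6. The treated libraries lay below the DMSO libraries of the same clone in all 3 clones, by a narrow gap in F7. The fall was 20.6% (log2 change -0.33 ± 0.05, adjusted p = 2.09e-06) after OL9-119 and 17.2% (-0.27 ± 0.05, adjusted p = 3.36e-05) after the combination. After topotecan the log2 difference was -0.04 ± 0.05. The mitochondrial TXN2 and TXNRD2 passed under no treatment, with log2 differences of -0.17 to 0.02.

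TXNIP, an arrestin-like protein that binds thioredoxin and limits glucose uptake (chr1:145992435-145996600), moved in opposite directions with the 2 agents. In DMSO it was at 112, 88, 97.5 and 107 CPM in C6, 33.5, 32.5, 29.7 and 37 in F7, and 60, 42.8, 47.1 and 50 in G6. Topotecan libraries had 132, 110, 111 and 132 CPM in C6, 36.5, 35, 34 and 34.6 in F7, and 72.6, 66.9, 63.5 and 73.2 in G6. OL9-119 libraries had 66.3, 71.7, 77.9 and 64.7 CPM in C6, 28.2, 28.3, 22 and 27.5 in F7, and 45.9, 47.4, 34.9 and 41.2 in G6. In G6 the topotecan libraries were all above DMSO, and in C6 and F7 the OL9-119 libraries were all below it, while the other groups overlapped.

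TXNIP rose by 20.4% after topotecan (log2 change 0.27 ± 0.07, adjusted p = 0.00184) and fell by 22.3% after OL9-119 (-0.36 ± 0.07, adjusted p = 5.88e-05). Under the combination it also fell by 22.3% (-0.36 ± 0.07), so the combination lay below topotecan alone by a log2 difference of -0.63 ± 0.07 (adjusted p = 1.38e-10), with no overlap within any clone (0.406% of all tested genes). In that comparison 8 of the 34 passed, 1 higher and 7 lower, against 6.78% of all tested genes. The rise after topotecan rested on C6 and G6, with log2 changes of 0.26 and 0.46 against 0.08 in F7, and without G6 it was 0.17 (adjusted p = 0.123). The interaction, the amount by which the combination departs from the sum of the 2 agents on the log2 scale, was -0.27 ± 0.09 (adjusted p = 0.737). No interaction of the 34 passed, where 0.0316% of all tested genes did. At an unadjusted p under 0.05 there was 1, TXNIP, against 6.31% of all tested genes, and DESeq2 also called 0.

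**Figure D2:**
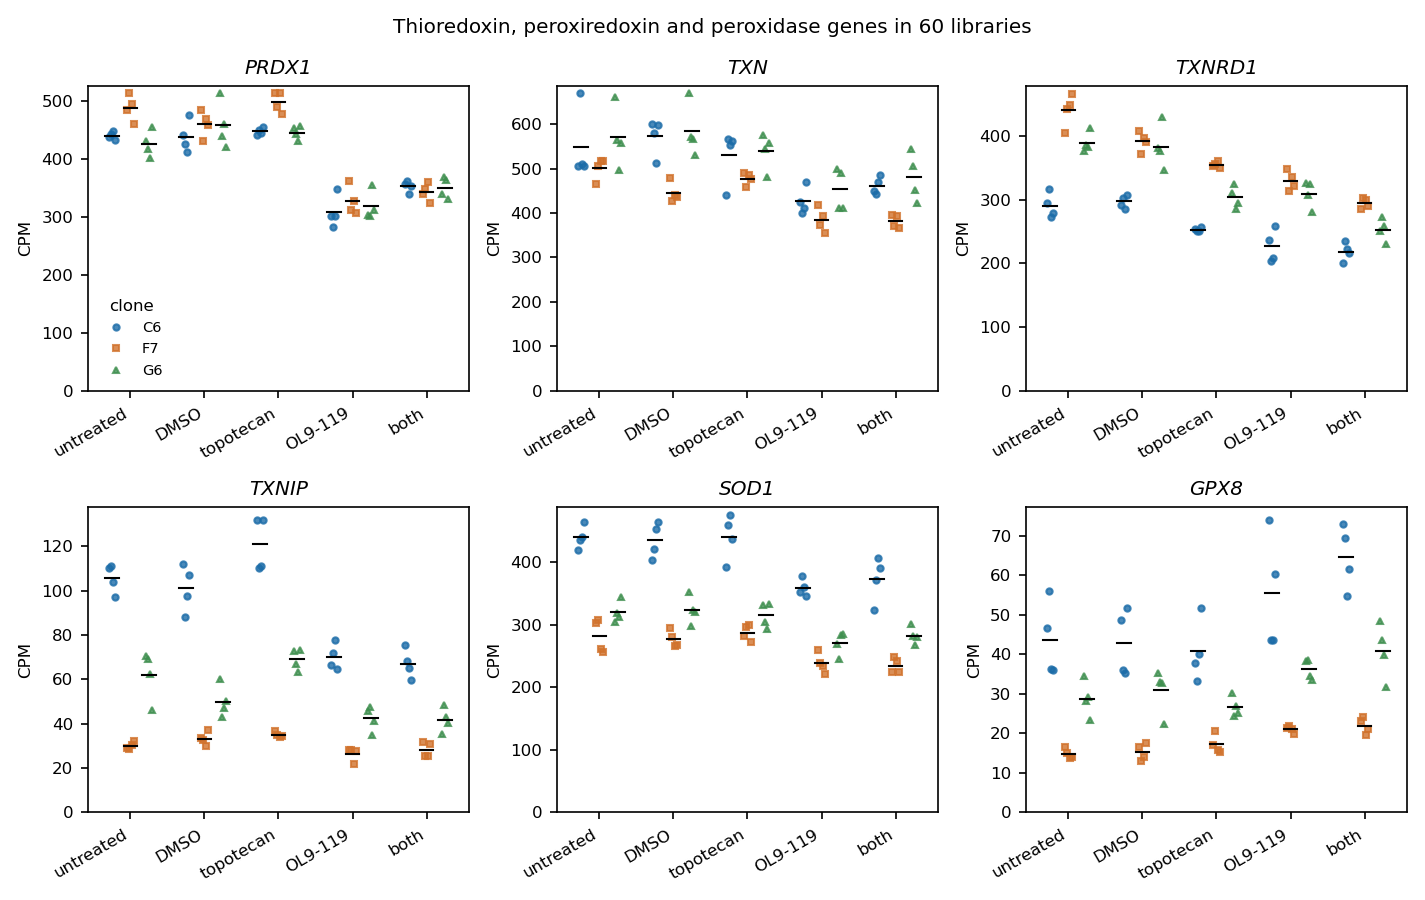
CPM (linear axes from 0) of 6 genes in all 60 libraries by treatment, with 1 point per library, colour and marker for the clone, and a black bar for the mean of 4. PRDX1 drops from 412 to 514 CPM in DMSO to 283 to 363 CPM with OL9-119, whereas TXNIP and GPX8 show their clone differences in every treatment.

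Among peroxide and superoxide enzymes the directions were mixed. GPX8, a peroxidase of the endoplasmic reticulum membrane (chr5:55160118-55167071), was the only one of the 34 that rose after OL9-119. Its DMSO libraries had 48.8, 36.1, 35.2 and 51.6 CPM in C6, 16.6, 13, 14 and 17.5 in F7, and 35.3, 32.9, 32.8 and 22.4 in G6. With OL9-119 it was at 74.1, 43.5, 43.6 and 60.4 CPM in C6, 21.3, 21.8, 21.1 and 19.7 in F7, and 38.2, 38.6, 34.6 and 33.5 in G6. Groups overlapped in C6 and G6 and were apart in F7.

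GPX8 rose by 27.8% after OL9-119 (log2 change 0.35 ± 0.09, adjusted p = 0.00692) and by 42.2% after the combination (0.51 ± 0.09, adjusted p = 2.11e-05). After topotecan its log2 difference was -0.03 ± 0.09. Without the 14 libraries of low detection the changes were 0.26 (adjusted p = 0.0288) and 0.44. The OL9-119 call was lost without replicate 2 (0.33, adjusted p = 0.0582), without replicate 3 (0.36, adjusted p = 0.0516) and without clone F7 (0.30, adjusted p = 0.196), whereas the combination call held in all 14 alternatives.

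SOD1, the cytosolic superoxide dismutase, fell by 16% after OL9-119 (log2 change -0.25 ± 0.04, adjusted p = 8.81e-06). Its DMSO libraries had 404, 422, 454 and 464 CPM in C6, 295, 281, 266 and 267 in F7, and 353, 298, 324 and 321 in G6. Its OL9-119 libraries had 352, 378, 361 and 346 CPM in C6, 260, 239, 234 and 222 in F7, and 270, 246, 283 and 286 in G6, all below the DMSO libraries of their clone. SOD2, the mitochondrial enzyme, rose by 18.9% after topotecan (log2 change 0.25 ± 0.05, adjusted p = 2.72e-04) and by 15% after the combination. The combination was above OL9-119 alone by a log2 difference of 0.37 ± 0.05. The SOD2 fall after OL9-119 was small (-0.16 ± 0.05, adjusted p = 0.0358) and was lost in 8 of 14 alternatives. Catalase, CAT, rose by 12.2% after the combination (0.17 ± 0.05, adjusted p = 0.0202), a call lost in 7 of 14 alternatives, among them the fit without the 14 libraries of low detection (0.09, adjusted p = 0.295). GPX1 and GPX4, the latter the enzyme that reduces lipid hydroperoxides, passed in none of the 3.

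**Figure D3:**
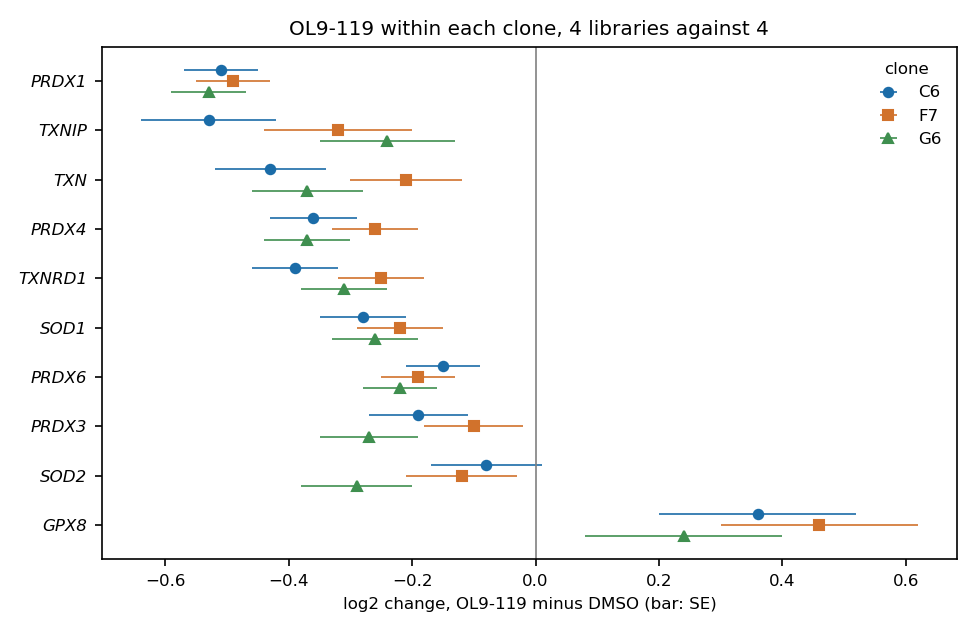
Log2 change after OL9-119 within each clone (4 libraries against 4, bar SE) for the 10 genes that passed over the 3 clones together. PRDX1 lies at -0.51, -0.49 and -0.53 in C6, F7 and G6, and GPX8 at 0.36, 0.46 and 0.24.

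No gene of the 34 passed the test of clone dependence, which asks whether a treatment's change differs among C6, F7 and G6. That count was 0 for topotecan, OL9-119 and the combination, against 0.137%, 0.0263% and 0.169% of all tested genes. At an unadjusted p under 0.05 it was also 0 for each, against 3.76%, 3.41% and 5.11% of all tested genes, and DESeq2 called 0. A missed threshold does not show that the clones respond alike.

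Of the 3 regulators, NFE2L2 rose by 20.2% after the combination (log2 change 0.27 ± 0.08, adjusted p = 0.0129). Its DMSO libraries ran from 55.5 to 99.9 CPM with a median of 72.8, and the combination libraries from 58.7 to 132 with a median of 83.4, so they overlapped. Without the 14 libraries of low detection it was 0.18 (adjusted p = 0.0747), and the call was also lost without replicate 2 (0.21, adjusted p = 0.148), without clone C6 (0.24, adjusted p = 0.0845) and without clone F7 (0.20, adjusted p = 0.265). KEAP1 did not pass after topotecan, with a log2 difference of 0.18 ± 0.08 (adjusted p = 0.103), but it passed in 7 of 14 alternatives. Among these were the fits without the 14 libraries (0.21, adjusted p = 0.00778), without clone C6 (0.25, adjusted p = 0.0319) and without replicate 4 (0.24, adjusted p = 0.0291). After the combination the KEAP1 difference was 0.16 ± 0.08, and it passed without the 14 libraries (0.26, adjusted p = 0.00298), without clone C6 (0.24, adjusted p = 0.0374), with library totals alone and with the replicate block. NFE2L1, the related factor that controls proteasome genes, had log2 differences of 0.00 to 0.08.

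Of 7 NRF2 stress enzymes and transporters none passed after OL9-119, against 9.47% of all tested genes. For 7 genes, none is near that share. The group's median log2 difference was -0.01 against 0.01 for all genes. NQO1, a quinone reductase, had log2 differences of 0.19 ± 0.18, -0.01 ± 0.18 and 0.08 ± 0.18 after topotecan, OL9-119 and the combination. HMOX1, which breaks down heme, had -0.35 ± 0.14, 0.13 ± 0.14 and -0.22 ± 0.14. SRXN1, which repairs overoxidised peroxiredoxins, averaged 1.44 CPM in DMSO and had an SE of 0.35, so a change of that size was not detectable at this depth. SRXN1 shares 85% of its exon bases with an overlapping gene model on its own strand, so its counts are uncertain.

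OSGIN1, an NRF2 target that restrains growth, had a log2 difference of 0.54 ± 0.27 (adjusted p = 0.234) after OL9-119 and 0.58 ± 0.27 (adjusted p = 0.134) after the combination. Without the 14 libraries of low detection these were 0.80 (adjusted p = 0.00782) and 0.90, so the OL9-119 call turned on those libraries. For the combination that fit kept 1 C6 library, so for OSGIN1 the size alone is given. C6 held few OSGIN1 counts in DMSO and weighs as much as the other clones in these log2 differences. After topotecan OSGIN1 did not pass, but it passed with DESeq2 (0.64, adjusted p = 0.048) and with only the compared groups fitted (0.63, adjusted p = 0.0438). Its mean was 2.55 CPM in DMSO, 3.61 with topotecan, 2.98 with OL9-119 and 3.19 with both. MGST1, a membrane glutathione transferase, passed after OL9-119 only without the 14 libraries, at -0.31 (adjusted p = 0.0230) against -0.19 ± 0.12.

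Malic enzyme ME1 and the efflux pump ABCC1 fell after topotecan. ME1 ran from 46.1 to 89 CPM in DMSO (median 62) and from 38 to 84.1 CPM in topotecan (median 44.3). ABCC1 ran from 73 to 137 CPM (median 95.8) and from 61.7 to 106 CPM (median 74.8). The ranges overlapped for both genes. ME1 fell by 22.9% (log2 change -0.37 ± 0.10, adjusted p = 0.00518), a call lost in 3 of 14 alternatives, and ABCC1 fell by 20.4% (-0.33 ± 0.06, adjusted p = 1.30e-05). Under the combination both fell as well, by 17.8% and 20.5%. The ME1 call was lost in 8 of 14 alternatives and the ABCC1 call in none of them. ABCC1 lay below OL9-119 alone by a log2 difference of -0.40 ± 0.06 with no overlap within any clone (1.52% of all tested genes).

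The 3 members that fell after topotecan, ME1, ABCC1 and TXNRD1, span 220.7, 193.5 and 134.5 kb of the genome. They were 3 of the 6 tested members over 100 kb, and none of the 28 shorter members fell. Of all 3244 tested genes over 100 kb, 38.7% fell after topotecan and 0.647% rose, against 3.29% and 7.1% of shorter genes. Whether length plays a part in the change of these 3 genes was not tested.

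Glutathione synthesis and recycling had 1 call over the 3 treatments, that of GSR. GCLC and GCLM, the catalytic and modifier subunits of the rate-limiting ligase, had log2 differences of -0.15 to 0.14 over the 3 treatments. In DMSO GCLC ran from 69.5 to 114 CPM and GCLM from 47.3 to 90.9 CPM. With OL9-119 GCLC ran from 78.7 to 130 CPM and GCLM from 44.2 to 90.7 CPM, so the ranges overlapped. Within F7 the GCLC libraries with OL9-119, at 97.1, 85.8, 84.6 and 92.5 CPM, all lay above the DMSO libraries, at 81.8, 72.4, 71.8 and 84.4 CPM. Glutathione synthetase GSS passed in none. The reductase GSR fell by 8.63% after the combination (log2 change -0.13 ± 0.04, adjusted p = 0.0231), a call lost in 11 of 14 alternatives, among them the fit without the 14 libraries of low detection (-0.08, adjusted p = 0.264). SLC7A11-AS1 had at most 0.978 CPM in any library. Its exons overlap those of SLC7A11 on the other strand over 14% of their bases, SLC7A11 held 284 times its counts, and the strand setting of the counting is not given in the sources used here.

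In the pentose phosphate pathway, PGD, which makes NADPH in the second oxidative step, rose by 16% after topotecan (log2 change 0.21 ± 0.05, adjusted p = 7.24e-04). It ran from 118 to 172 CPM in DMSO (median 131) and from 136 to 193 in topotecan (median 153), with overlap. After OL9-119 and the combination its log2 differences were 0.04 ± 0.05 and 0.12 ± 0.05 (adjusted p = 0.0670). TKT and TALDO1 of the non-oxidative branch passed in none of the 3.

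Of the 34, 0 passed in DMSO minus untreated, against 0.0158% of all tested genes, and DESeq2 also called 0. At an unadjusted p under 0.05 there was 1 of them, HMOX1, at -0.44 ± 0.14, against 5.02% of all tested genes. HMOX1 passed without the low-count filter (-0.45, adjusted p = 0.0283). Untreated HMOX1 in G6 was at 61, 73.4, 47.8 and 52.9 CPM, against 28.9, 30.4, 27.7 and 52 in DMSO.

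Clones differed in more of these genes. In DMSO, 20 of the 34 passed between C6 and F7 (13 higher and 7 lower in C6, against 39.5% of all tested genes, 20.4% higher and 19.2% lower), 14 between C6 and G6 (7 each way, against 24.4%, 11.6% higher and 12.8% lower) and 10 between F7 and G6 (1 higher and 9 lower in F7, against 17.1%, 6.89% higher and 10.2% lower). C6 had low transcript levels of several NRF2 targets. HMOX1 in DMSO was at 5.95, 3.69, 4.25 and 3.5 CPM in C6, 28.3, 39.9, 55.8 and 29.4 in F7, and 28.9, 30.4, 27.7 and 52 in G6. C6 lay far below the other clones, which overlapped with each other. C6 was 0.111 times F7 (log2 difference -3.17 ± 0.26, adjusted p = 6.15e-15) and 0.122 times G6 (-3.04 ± 0.26, adjusted p = 5.72e-14).

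NQO1 was also lowest in C6, with 1.53, 3.28, 3.05 and 3.22 CPM in C6, 7.43, 6.55, 9.19 and 9.11 in F7, and 9.28, 7.9, 8.54 and 8.24 in G6. The log2 differences of C6 were -1.5 ± 0.33 from F7 and -1.59 ± 0.33 from G6 (adjusted p = 1.84e-04 and 1.88e-04). OSGIN1 was at 0, 1.03, 0.647 and 0.358 CPM in C6, 4.18, 3.54, 4.81 and 4.4 in F7, and 3.24, 1.81, 3.05 and 3.5 in G6, with log2 differences of -3.09 ± 0.52 and -2.57 ± 0.53. TXNRD1 was also lower in C6, at 0.760 times F7 and 0.777 times G6, and so was GSS, at 0.591 and 0.610 times. These were not shared by all targets: GCLC was 31.9% higher in C6 than in F7 (adjusted p = 0.00868), a call lost without replicate 2 and with library totals alone, and GCLM did not pass in either.

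**Figure D4:**
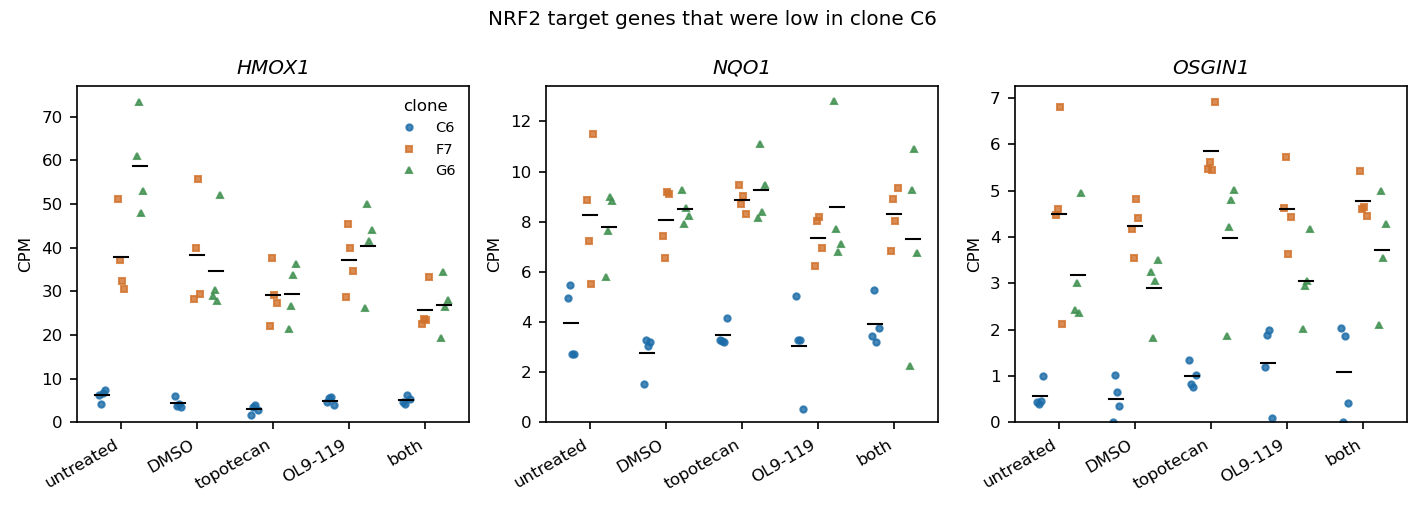
CPM (linear axes from 0) of HMOX1, NQO1 and OSGIN1 in all 60 libraries by treatment, with 1 point per library and a black bar for the mean of 4. The C6 points of HMOX1 stay at or below 7.49 CPM in all 5 treatments, under every F7 and G6 point.

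Other members were highest in C6. TXNIP was 3.05 times as high in C6 as in F7 (log2 difference 1.61 ± 0.12, adjusted p = 3.97e-17) and 2.02 times as high as in G6, and G6 was above F7 with F7 minus G6 at -0.60 ± 0.11. GPX8 was 2.83 times as high in C6 as in F7 (1.5 ± 0.16, adjusted p = 7.72e-11), with 1.40 times against G6 (0.49 ± 0.16, adjusted p = 0.0193), a call lost without replicate 4 and when only the compared groups were fitted. F7 had the lowest level of both. The mitochondrial TXN2 and PRDX3 were higher in C6 than in F7 by log2 differences of 0.91 ± 0.12 and 0.75 ± 0.08, SOD1 by 0.65 ± 0.07, PRDX4 by 0.60 ± 0.07 and PRDX6 by 0.41 ± 0.06. Catalase separated G6 from the others, with log2 differences of -0.58 ± 0.09 for C6 and -0.47 ± 0.09 for F7. PRDX1 did not pass between any pair, with differences of -0.07 to 0.01. With library totals alone it passed in C6 minus F7, at -0.21 (adjusted p = 0.00301), so this depended on the scaling.

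Genes next to these pathways were read from further lists. Of 19 tested genes of cystine supply and glutathione turnover, 8 passed after OL9-119, 6 higher and 2 lower, against 9.47% of all tested genes. SLC7A11, the cystine transporter, rose from 20.7 ± 4.53 CPM (SD, n = 12) in DMSO to 73.8 ± 22.5 CPM (log2 change 1.82 ± 0.10 SE, adjusted p = 1.13e-20), and to 49.2 ± 8.43 CPM under the combination. CHAC1, which degrades glutathione, rose from 5.22 ± 1.54 to 42.7 ± 10.7 CPM (3.01 ± 0.17), and CTH, which makes cysteine, rose by 1.04 ± 0.11 on the log2 scale. All 7 genes listed for ATF4, which include target enzymes and again CHAC1, rose after OL9-119, against 4.47% of all tested genes. Their median log2 change was 1.32. The list of 20 further tested NRF2 targets had 1 call after OL9-119, BLVRA at -0.20 ± 0.06, and 14 partners and turnover factors of NRF2 had 1, RBX1 at -0.32 ± 0.10. Both shares are near or under that 9.47%. After topotecan, 6 of those 14 passed, against 15.3% of all tested genes: MAFF, a small MAF partner, rose by 0.78 ± 0.09, and BACH2 (-0.68 ± 0.07), GSK3B (-0.57 ± 0.07) and BTRC (-0.53 ± 0.05) were among 4 that fell. These 3 span 370.4, 273.1 and 203.3 kb, and 38.7% of all tested genes over 100 kb fell after topotecan, against 3.29% of shorter genes. Whether length plays a part in their change was not tested. Between C6 and F7 in DMSO, 12 of the 20 further NRF2 targets passed, 7 higher and 5 lower in C6, against 39.5% of all tested genes. FTL, a ferritin chain, was lower in C6 by -1.13 ± 0.09, whereas PIR was higher, at 18.6 ± 2.1 against 5.6 ± 1.67 CPM. Of the 14 partners and turnover factors 5 passed, 1 higher and 4 lower in C6. SQSTM1, which binds KEAP1, was lower by -1.38 ± 0.12.

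Sequences upstream of 4 genes are shown for the motifs that bear on these groups. RefSeq windows of 300 bases (250 before and 50 after the start, GRCh38.p14) were matched by symbol for 26 of the 35. The antioxidant response element core TGACNNNGC, searched on both strands, was in the window of 6 of the 26 (KEAP1, ME1, MGST1, GCLM, TXNRD1 and PGD) and in 13.3% of 35116 windows of all genes. An ATF4-type element, TGATGNAA, was in that of GPX8 and in 3.62% of all windows. A paired E-box (CACGNG, a spacer of 5 bases, and CACGNG again) was in that of TXNIP and in 20 of all windows, or 0.057%. For each motif a gene counted if any of its windows matched, while the share of all was counted by window, so the units differ. The bases before the start are given 5′ to 3′ on the gene's strand, with complete matches in capitals: the antioxidant core in TXNRD1 (chr12:104215529-104215778, plus strand, first of its starts) and GCLM (chr1:93909431-93909680, minus strand), the ATF4-type element in GPX8 (chr5:55159921-55160147, plus strand, the last bases before the start left out) and the paired E-box in TXNIP (chr1:145996580-145996829, minus strand, upstream one of its starts).
TXNRD1: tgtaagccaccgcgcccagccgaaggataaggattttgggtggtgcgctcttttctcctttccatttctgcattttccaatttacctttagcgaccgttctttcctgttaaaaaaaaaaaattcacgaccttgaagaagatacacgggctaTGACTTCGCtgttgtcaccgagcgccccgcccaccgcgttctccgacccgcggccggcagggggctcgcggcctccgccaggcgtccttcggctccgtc
GCLM: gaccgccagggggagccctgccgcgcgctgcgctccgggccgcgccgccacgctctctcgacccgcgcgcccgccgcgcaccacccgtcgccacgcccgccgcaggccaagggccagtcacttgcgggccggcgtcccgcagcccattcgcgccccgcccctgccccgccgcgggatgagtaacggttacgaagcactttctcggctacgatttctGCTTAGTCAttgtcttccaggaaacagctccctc
GPX8: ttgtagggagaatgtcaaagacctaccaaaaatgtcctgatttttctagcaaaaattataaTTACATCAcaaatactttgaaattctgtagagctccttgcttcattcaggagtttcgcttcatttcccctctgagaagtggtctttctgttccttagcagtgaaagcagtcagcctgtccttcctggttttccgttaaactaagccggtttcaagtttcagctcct
TXNIP: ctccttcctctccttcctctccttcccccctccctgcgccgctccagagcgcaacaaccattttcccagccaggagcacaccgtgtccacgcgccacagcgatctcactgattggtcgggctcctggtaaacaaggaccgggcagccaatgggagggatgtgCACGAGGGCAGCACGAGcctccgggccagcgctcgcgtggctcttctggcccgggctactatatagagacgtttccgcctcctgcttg
TXNRD1 and GCLM, which both hold the antioxidant core here, differed in the tests: TXNRD1 fell under all 3 treatments and GCLM passed under none. A further TXNRD1 match, GCTCCGTCA on the other strand, runs across the start and is not in capitals. These letters are descriptions of the windows, and binding of any factor was not measured.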

How the data were processed

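Poly(A) RNA of 60 libraries was sequenced after directional library preparation, per the labels' protocols. The deposited table gives raw, unscaled counts for each Ensembl gene. Per the submitters' processing notes, the tools were STAR 2.7.8, FastQC 0.11.9 and Picard 2.26.6 and the genome build hg38. How reads were counted, with which annotation and on which strand, is not given in the sources used here. Symbols came from a table of current gene names and gene spans from GENCODE 29.

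Groups came from the sample labels. Genes past edgeR's filterByExpr (18985) were fitted in 1 model over the 15 groups with edgeR 4.0.16 in R 4.3.3 (quasi-likelihood F test, 2-sided, TMM scaling, Benjamini-Hochberg adjustment over all tested genes, threshold 0.05). A treatment effect is the mean of its differences in C6, F7 and G6. Errors (±) are SE for log2 changes and SD for CPM, which were scaled with the TMM factors. The fit was tested on simulated data.

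Alternatives were RLE and library-total scaling, no low-count filter, DESeq2 1.42.0, leaving out replicates, clones or the 14 libraries of low detection, a replicate block, and fitting only the compared groups. The 35 genes, the other lists, the sequences shown and the level of 40 CPM were chosen with earlier results of these data known. All 35 genes could be named; of the other lists, up to 4 genes past the threshold with the largest change per comparison, with SLC7A11, CHAC1, ATF4, TDP1 and TOP1 among those always allowed. A withheld item is not reported here.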

Additional observations from a re-analysis of the deposited data

Results flagged for a closer look

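For 8 genes followed library by library (GPX8, PRDX1, TXN, TXNRD1, TXNIP, SOD1, HMOX1 and NQO1), 8 of 120 groups of 4 had a library whose distance from the nearest other was large against the range of the group (Dixon's test at 95%). Chance marks about 1 group in 20. In clone C6, TXN was high in an untreated library at 669 CPM, with the others at 506 to 511 CPM, and low in a topotecan library at 441 CPM, with the others at 554 to 566 CPM. TXNIP was low in an F7 library with OL9-119, at 22 CPM against 27.5 to 28.3 CPM. HMOX1 was high in an F7 library of the combination, at 33.3 CPM against 22.5 to 23.7 CPM, and in a G6 library with DMSO, at 52 CPM against 27.7 to 30.4 CPM. NQO1 in C6 was low in a DMSO library at 1.53 CPM against 3.05 to 3.28 CPM and high in a topotecan library at 4.16 CPM against 3.19 to 3.29 CPM. NQO1 was also high in a G6 library with OL9-119, at 12.8 CPM against 6.8 to 7.7 CPM.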

How the results depend on the processing

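Of 86 calls of the 35 genes over the comparisons, 60 held in every alternative fitted and none turned in direction. DESeq2 and the fit with a replicate block lost 0 of the 86 and gained 7 and 14. Replicate numbers are not stated to mark a shared source, and the correlations of same-numbered libraries did not all pass 0.1, so the block is given here only. It raised the count for combination minus topotecan from 8 to 14 of 34, and changed no other count by over 1.5 times. Without the low-count filter, DMSO minus untreated had 1 call in place of 0. Leaving out each replicate number in turn gave 5 to 7 calls for topotecan, 7 to 9 for OL9-119, 10 to 12 for the combination, 8 in each case for combination minus topotecan, 3 to 4 for combination minus OL9-119, 17 to 20 for C6 minus F7, 11 to 15 for C6 minus G6 and 8 to 14 for F7 minus G6, and 0 for the vehicle, interaction and clone dependence tests. With library totals as the only scaling, the median of all genes in C6 minus F7 moved from -0.05 to -0.19, and the split of calls from 13 higher and 7 lower to 10 higher and 12 lower. In the combination that scaling gave 7 higher and 8 lower against 4 and 10. Genes near 1 CPM, such as SRXN1 and OSGIN1, hold few counts per library, and small changes in them could not be detected.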
